A study of Mus musculus with 8 samples.

Results

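Hox cluster genes encode homeodomain transcription factors that lie side by side in 4 genomic clusters, Hoxa, Hoxb, Hoxc and Hoxd, and were read here in whole mouse pancreas. Members were the non-control probes whose gene name in the array files was Hoxa, Hoxb, Hoxc or Hoxd followed by a number. That rule took 49 probes of 38 genes, of 41174 probes with 27962 distinct names on the array. Of these, 37 genes with 48 probes are reported here, and every Hox count that follows is over them. By cluster they were 10 Hoxa, 10 Hoxb, 8 Hoxc and 9 Hoxd genes. Hoxc11 was not analysed here.

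RNA was taken at 1 week of age from C57BL/6 mice that were Glis3KO2, a line labelled as a knockout of the zinc finger factor Glis3 (4 pancreases), or wild type (WT, 4 pancreases). The labels do not give the deleted part of Glis3 or the litters, and say that pups stayed with their biological mother. By its title, the series asks about Glis3 in beta cell development and maturation, beta cells being the source of insulin in the islets. Each pancreas was read on 1 single-colour Agilent array, and the value used throughout is log2 signal minus that array's 75th percentile, so that a negative value means a signal under that percentile.

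Within a Hox cluster the genes stand in the order of their paralogue numbers, which is also the order in which they are switched on from the head to the tail of the embryo. Their proteins bind DNA together with Pbx and Meis partners, through a homeodomain and a short hexapeptide motif, and Polycomb and Trithorax complexes keep the clusters silent or active as cells divide. The pancreas buds from the gut tube at a trunk level, and in mice the Hox6 paralogues act in its mesenchyme, the connective tissue around the epithelium, where they are needed for endocrine cells to form.

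The 75th percentile before scaling was 460 to 694, and each array had 31353 to 35613 probes well above background. The Glis3KO2 arrays shared 1 slide and the WT arrays shared the other, so genotype and slide cannot be told apart. On the first principal component Glis3KO2 replicates 3 and 4 were at -39.8 and -59.0, and the other 6 arrays were at -0.46 to 26.0. Xist, which marks female tissue, was high on 3 Glis3KO2 arrays and 1 WT array. The Glis3 probe was well above background on 0 Glis3KO2 and 3 WT arrays, at -6.06, -6.43, -5.93 and -6.15 on Glis3KO2 replicates 1 to 4, against -6.06, -5.41, -5.50 and -5.35 on WT replicates 1 to 4. Since the deleted part is not given, that dim probe is a weak check of the labels. Acinar, duct and islet marker genes, 9 in all, were well above background on all 8 arrays. Of these, 8 had a negative difference of Glis3KO2 minus WT and 1 a positive one. An unadjusted p under 0.05 (limma) was reached by 4 of the 9, where 8.97% of all tested probes stood. The 2 that passed an adjusted p of 0.05 were Ins1 and Ins2, the insulin genes, both lower in Glis3KO2. Ins1 had a mean of 5.07 in Glis3KO2 and 7.61 in WT (limma, adjusted p = 0.00132). Ins2 had a mean of 5.27 in Glis3KO2 and 8.97 in WT, a difference of -3.70 ± 0.22 (SE, limma, adjusted p = 5.36e-04). Whole tissue was measured, so fewer cells of a type and less RNA per cell cannot be told apart.

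The letters of a probe show which part of a Hox transcript it reads. For the core of the hexapeptide that binds Pbx proteins, only the codons CCCTGGATG were searched, on both strands. Probes with other codons for that core were not counted. The searched codons stood in 2 of 48 Hox probes (4.17%), those for Hoxa6 and Hoxd3, against 26 of all 41174 probes (0.0631%). These probes are shown because they hold the core codons, which the capitals mark. They lie at chr6:52171564-52171623 on the minus strand and at chr2:74588190-74588249 on the plus strand of mm7.
Hoxa6: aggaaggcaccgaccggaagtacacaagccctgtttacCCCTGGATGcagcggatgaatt
Hoxd3: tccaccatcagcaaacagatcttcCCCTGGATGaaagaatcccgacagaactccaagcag

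The dimmer of the 2 Hoxb2 probes is shown for its strand. It lies at chr11:96459585-96459644 of mm7 on the minus strand, whereas the 13 other Hoxb probes lie on the plus strand, so in that orientation it reads the strand opposite to the Hoxb2 messenger RNA.
Hoxb2, opposite strand: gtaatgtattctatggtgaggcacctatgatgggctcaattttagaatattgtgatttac

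The array positions placed the Hoxa probes within 96.6 kb of chromosome 6, all on the minus strand. The Hoxb probes spanned 172 kb of chromosome 11, the Hoxc probes 108 kb of chromosome 15 and the Hoxd probes 95.1 kb of chromosome 2. Of the 37 genes, 27 (73.0%) had a probe well above background on 4 or more of the 8 arrays. Counted by probe, 33 of 48 did so, where 80.7% of all probes did, and 29 of 48 were well above background on all 8 arrays, where 73.2% of all probes were. Between 32 and 35 Hox probes were well above background on a Glis3KO2 array, against 33 to 37 on a WT array. Of all probes, 76.1 to 80.7% were well above background on a Glis3KO2 array and 79.3 to 86.5% on a WT array.

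By this call, detection was more frequent at low paralogue numbers. Of the 19 genes with paralogue numbers 1 to 7, 18 (94.7%) were well above background on 4 or more arrays, and the exception was Hoxd1. Of the 18 with numbers 8 to 13, 9 (50%) were. All measured members of paralogue groups 2 to 7 passed, as did the 3 members of group 10, whereas 0 of 2 passed in group 11, 1 of 2 in group 12 and 1 of 4 in group 13. The split between low and high numbers was chosen after the values were seen and was not tested. It rests on the strict call: by Feature Extraction's weaker call of a signal positive and significant over background, 19 of 19 genes numbered 1 to 7 and 17 of 18 numbered 8 to 13 passed, all but Hoxc8.

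**Figure D1:**
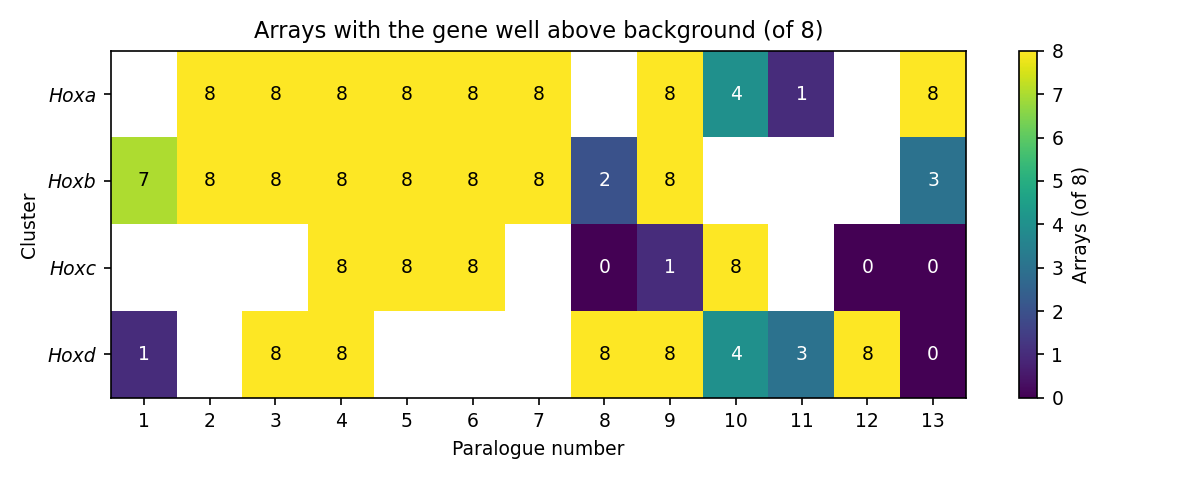
Number of arrays (of 8) on which each Hox gene was well above background, by cluster (rows) and paralogue number (columns), taking the probe with the most such arrays. Blank squares have no value here, and the low counts lie at paralogue numbers 8 to 13 apart from Hoxd1.

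By cluster, 9 of 10 Hoxa genes, 8 of 10 Hoxb genes, 4 of 8 Hoxc genes and 6 of 9 Hoxd genes passed. Hoxa lacked Hoxa11 alone, a gene that acts with its paralogues in kidney and limb development. Hoxb lacked Hoxb8 and Hoxb13, the second of which acts in the prostate and tail. Hoxc lacked Hoxc8, Hoxc9, Hoxc12 and Hoxc13, and Hoxc13 is a regulator of hair. Hoxd lacked Hoxd1, Hoxd11 and Hoxd13, and Hoxd13 patterns the digits. Hoxc8, Hoxc12, Hoxc13 and Hoxd13 were well above background on 0 arrays, and a probe in that state gives an upper bound on signal, not an absence of transcript. Just inside the limit of 4 arrays were Hoxa10 and Hoxd10 with 4 arrays each, and just outside it were Hoxb13 and Hoxd11 with 3 each.

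Hoxd11 was the gene whose detection differed most by genotype, on 0 Glis3KO2 and 3 WT arrays. Its values were -6.46, -7.46, -6.24 and -7.11 on Glis3KO2 replicates 1 to 4, against -8.02, -5.45, -4.01 and -4.71 on WT replicates 1 to 4. The lowest of the 8 values was also a WT one, so the groups overlapped. The detection floor was the lowest signal of a probe well above background on each array. The Hoxd11 mean in WT, -5.55, was 1.15-fold above the mean Glis3KO2 floor of -5.75. That WT mean includes replicate 1, which was not well above background, so no least difference between genotypes is read from it. In a fit without the filter on dim probes, the adjusted p of Hoxd11 was 0.764 (limma). The dimmer Hoxc10 probe had the same count of 0 Glis3KO2 and 3 WT arrays, with adjusted p = 0.826 in that fit, and its brighter probe was well above background on all 8 arrays.

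The genotypes were compared over all 33239 probes that were well above background on 4 or more arrays. Of these, 0.256% passed an adjusted p of 0.05, with 0.0812% higher and 0.174% lower in Glis3KO2. Of the 33 tested Hox probes, 0 passed (limma, lowest adjusted p = 0.171). At an unadjusted p under 0.05 there were 3 Hox probes (9.09%), where 8.97% of all tested probes stood, so the Hox share was near the background. Groups did not overlap for 1 Hox probe (3.03%), that of Hoxa9, which was lower in Glis3KO2. The same held for 5.2% of all tested probes, with 1.86% higher and 3.35% lower, so this share was no higher than the background. With 4 arrays per genotype, a miss of the threshold does not show that a gene was alike in both.

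Read through the brightest probe of each gene, 17 of the 27 tested Hox genes had a positive difference of Glis3KO2 minus WT and 10 a negative one, where 48% of all tested probes were positive. The median over the 27 genes was 0.07, beside -0.009 over all tested probes. Medians by cluster were 0.30 for Hoxa, -0.04 for Hoxb, 0.10 for Hoxc and -0.06 for Hoxd. By position they were 0.17 for paralogues 1 to 3, 0.12 for 4 to 8 and -0.08 for 9 to 13. With normexp background correction the median over the 27 genes was -0.04, and it was -0.08 without Glis3KO2 replicate 1 and -0.01 without WT replicate 1, so its sign turned with each of these settings. Medians with normexp were 0.15 for Hoxa, -0.07 for Hoxb, -0.02 for Hoxc and -0.09 for Hoxd, so that of Hoxc turned too. By position they were 0.09 for paralogues 1 to 3, 0.03 for 4 to 8 and -0.13 for 9 to 13.

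**Figure D2:**
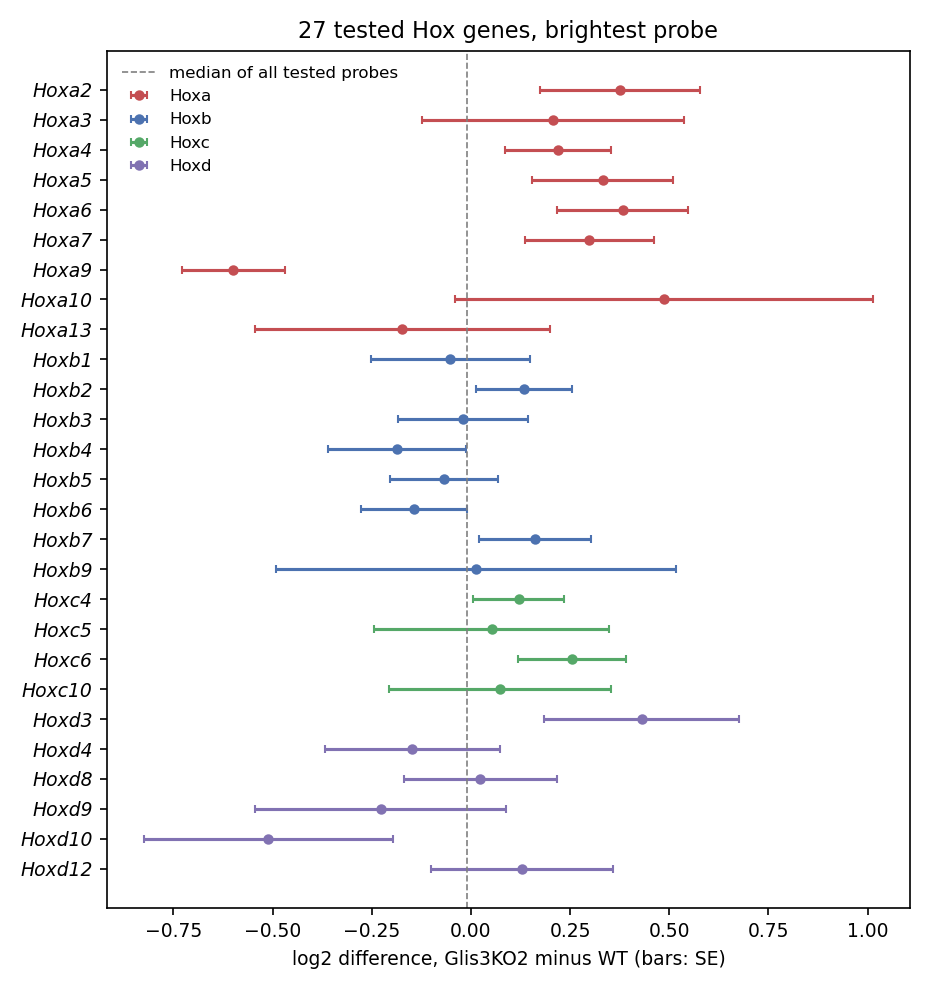
Log2 difference, Glis3KO2 minus WT, of the brightest probe of each of the 27 tested Hox genes, with bars of 1 SE from limma and colours by cluster. The dashed line is the median of all tested probes at -0.009, and Hoxa9 at -0.60 is the gene farthest from it relative to its bar.

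Among the anterior paralogues, Hoxa2, a selector gene of the second pharyngeal arch, was at -2.23, -1.99, -1.82 and -1.93 on Glis3KO2 replicates 1 to 4, against -2.80, -2.64, -2.10 and -1.94 on WT replicates 1 to 4. WT replicates 3 and 4 lay within the Glis3KO2 range, and the difference was 0.38 ± 0.20 (SE, limma, adjusted p = 0.637). Hoxa3, needed for the thymus and parathyroid, was read by 2 probes with positive differences. The brighter was at -0.14, -1.18, -1.64 and -1.43 on Glis3KO2 replicates 1 to 4, against -0.76, -1.20, -1.65 and -1.61 on WT replicates 1 to 4. Its highest value in each genotype was that of replicate 1, and without Glis3KO2 replicate 1 its difference of 0.21 became -0.11. The dimmer Hoxa3 probe differed by 0.38 ± 0.13 (SE, limma, adjusted p = 0.436), with means of -3.37 in Glis3KO2 and -3.75 in WT.

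Differences of the anterior Hoxb genes lay closer to zero. Hoxb1, a hindbrain gene read by 10 spots on each array, had means of -5.06 ± 0.21 in Glis3KO2 and -5.01 ± 0.40 in WT (SD, n = 4 each). Hoxb2, which acts in hindbrain and facial motor neurons, averaged 0.06 ± 0.18 in Glis3KO2 and -0.07 ± 0.12 in WT (SD, n = 4 each) on its brighter probe. Its opposite-strand probe differed by 0.13, the same size as the brighter one, with an SE of 0.40. Hoxb3 differed by -0.02 ± 0.16 (SE). The Hoxb3 probe also carries a Hoxd3 accession in the array files, so its reading of Hoxb3 alone is uncertain.

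Hoxd3 had the largest positive difference of the anterior genes, 0.43 ± 0.25 (SE, limma, adjusted p = 0.667), on the hexapeptide probe. Its values were -2.996, -3.43, -3.99 and -4.20 on Glis3KO2 replicates 1 to 4, against -3.92, -4.02, -4.29 and -4.12 on WT replicates 1 to 4. Glis3KO2 replicates 1 and 2 stood above all WT arrays, and replicates 3 and 4 lay within the WT range. The other Hoxd3 probe was well above background on 0 arrays, so the 2 probes disagree on whether the gene is detected, and normexp lowered the difference to 0.08.

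In the central part of the Hoxa cluster the differences were again positive. Hoxa4, an axial patterning gene, was at -1.46, -1.54, -1.30 and -1.71 on Glis3KO2 replicates 1 to 4, against -1.73, -1.99, -1.64 and -1.53 on WT replicates 1 to 4. Hoxa5, needed for lung development, was at -2.20, -2.21, -1.87 and -2.28 on Glis3KO2 replicates 1 to 4, against -2.63, -2.86, -2.31 and -2.09 on WT replicates 1 to 4. WT replicate 4, and for Hoxa4 also WT replicate 3, lay within the Glis3KO2 range, and the other WT arrays under it. Their differences were 0.22 ± 0.13 for Hoxa4 and 0.33 ± 0.18 for Hoxa5 (SE, limma, adjusted p = 0.690 and 0.637). The dimmer Hoxa4 probe differed by 0.49 ± 0.28 (SE, limma, adjusted p = 0.659).

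Hoxa6, one of the paralogues that act in pancreatic mesenchyme, was at -1.57, -2.01, -2.10 and -1.64 on Glis3KO2 replicates 1 to 4, against -2.26, -1.90, -2.46 and -2.23 on WT replicates 1 to 4. WT replicate 2 lay within the Glis3KO2 range and the other WT arrays under it. The difference was 0.38 ± 0.16 (SE, limma, adjusted p = 0.545), a 1.30-fold one. Hoxa7, an axial patterning gene, was at -1.08, -1.23, -0.78 and -0.79 on Glis3KO2 replicates 1 to 4, against -1.24, -1.65, -1.08 and -1.10 on WT replicates 1 to 4. Its difference was 0.30 ± 0.16 (SE, limma, adjusted p = 0.645), with Glis3KO2 replicates 3 and 4 above all WT arrays, replicate 1 level with the highest of them and replicate 2 within their range.

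The other Hox6 paralogues did not share one direction. Hoxb6 was at 1.17, 1.03, 0.77 and 0.68 on Glis3KO2 replicates 1 to 4, against 0.92, 1.09, 1.01 and 1.21 on WT replicates 1 to 4. Glis3KO2 replicates 3 and 4 held its lowest values, and the difference of -0.14 ± 0.13 (SE, limma, adjusted p = 0.806) became 0.04 without those 2 arrays. Its dimmer probe had the opposite sign, at 0.19 ± 0.24 (SE). Hoxc6 was at -4.08, -4.35, -4.13 and -4.24 on Glis3KO2 replicates 1 to 4, against -4.35, -4.81, -4.32 and -4.35 on WT replicates 1 to 4. WT replicate 2 stood well under the rest, and the difference of 0.25 ± 0.14 (SE, limma, adjusted p = 0.638) was -0.002 with normexp.

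Of the paralogues numbered 4 and 5, Hoxb4, which promotes the expansion of blood stem cells, averaged -3.28 ± 0.36 in Glis3KO2 and -3.10 ± 0.11 in WT (SD, n = 4 each). Its difference of -0.19 became 0.08 without Glis3KO2 replicates 3 and 4. Hoxb5, which acts in the enteric nervous system, averaged -1.02 ± 0.20 in Glis3KO2 and -0.96 ± 0.18 in WT (SD, n = 4 each). Hoxc4 averaged 0.93 ± 0.19 in Glis3KO2 and 0.81 ± 0.08 in WT, and Hoxc5 averaged -3.96 ± 0.66 in Glis3KO2 and -4.01 ± 0.22 in WT (SD, n = 4 each). Hoxd4, an axial gene like these, averaged -2.55 ± 0.35 in Glis3KO2 and -2.41 ± 0.36 in WT (SD, n = 4 each). In each of these the group ranges overlapped.

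Hoxb7, expressed in the ureteric bud of the kidney, averaged -0.04 ± 0.14 in Glis3KO2 and -0.20 ± 0.25 in WT (SD, n = 4 each). Hoxd8 averaged -2.61 ± 0.38 in Glis3KO2 and -2.63 ± 0.19 in WT (SD, n = 4 each), and was the sole member of its paralogue group that passed the detection rule. Hoxb8 was well above background on 2 arrays and Hoxc8 on 0.

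Among the posterior paralogues, Hoxa9, a regulator of blood progenitors, had the lowest adjusted p of all Hox probes. It was at -2.88, -2.63, -2.87 and -2.98 on Glis3KO2 replicates 1 to 4, against -2.28, -2.51, -2.15 and -2.03 on WT replicates 1 to 4. All Glis3KO2 values lay under all WT values. The difference was -0.60 ± 0.13 (SE), a 1.51-fold lower signal that did not pass the threshold (limma, adjusted p = 0.171). Over 18 other settings it ranged between -0.69 and -0.38, with adjusted p between 0.134 and 0.559.

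Of the neighbours of Hoxa9 on the cluster, Hoxa7 on its anterior side differed by 0.30, and Hoxa10, a gene of the lumbar axis and uterus, by 0.49 ± 0.53 (SE) on the posterior side. The sign for Hoxa10 was not stable, at -0.04 without WT replicate 1, -0.08 with normexp and -0.002 with Xist level as a covariate. Hoxa10 was well above background on 4 arrays and ran from -6.51 to -5.27 in Glis3KO2 and from -7.76 to -5.25 in WT. Hoxa13, which acts in digits, hindgut and genital tract, averaged -4.31 ± 0.86 in Glis3KO2 and -4.13 ± 0.24 in WT (SD, n = 4 each). Its second probe was well above background on 2 arrays.

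**Figure D3:**
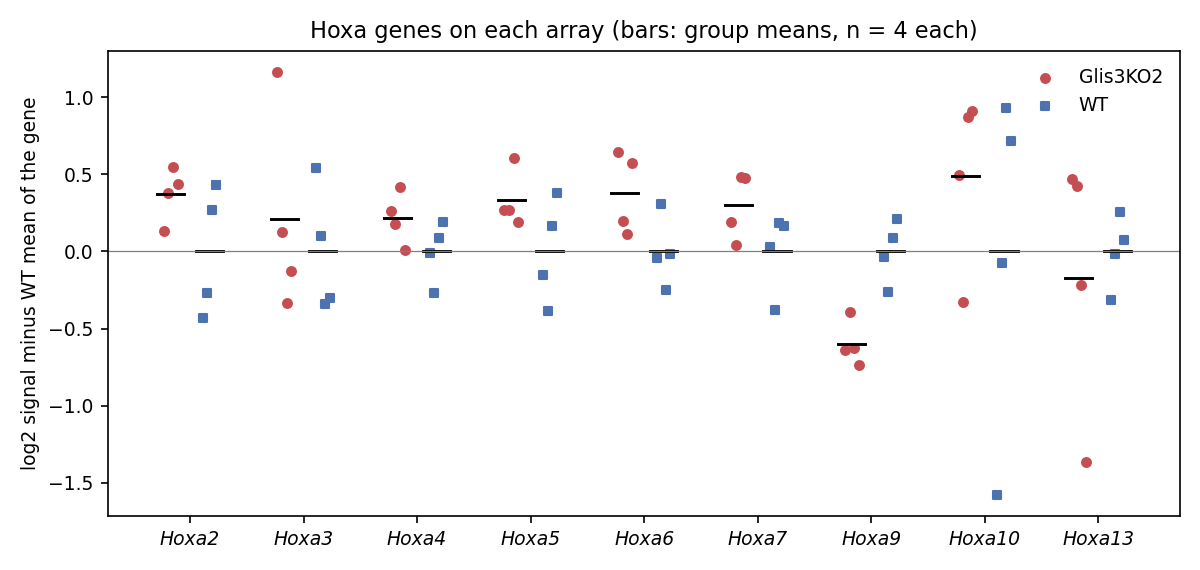
Log2 signal of 9 tested Hoxa genes on every array (brightest probe), relative to that gene's WT mean, with Glis3KO2 circles left of WT squares and black bars at the group means. Mean bars of Glis3KO2 lie above 0 from Hoxa2 to Hoxa7 and at -0.60 for Hoxa9.

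The paralogues of Hoxa9 showed no such separation. Hoxb9 was at -0.71, -0.60, -1.49 and -3.16 on Glis3KO2 replicates 1 to 4, against -1.73, -1.68, -1.55 and -1.05 on WT replicates 1 to 4. Its Glis3KO2 values reached both above and under the whole WT range, so the difference of 0.01 had an SE of 0.51, and its dimmer probe, which differed by 0.03 ± 0.15 (SE), did not show that spread. Hoxd9 was read by 2 probes of opposite sign, -0.23 ± 0.32 on the brighter and 0.44 ± 0.29 on the dimmer (SE). Hoxc9 was well above background on 1 array and was not tested.

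The remaining posterior genes were dim. Hoxc10 averaged -4.88 ± 0.50 in Glis3KO2 and -4.96 ± 0.42 in WT (SD, n = 4 each). Hoxd10, which acts in lumbar motor neurons, was at -4.96, -5.94, -5.90 and -6.12 on Glis3KO2 replicates 1 to 4, against -4.64, -5.46, -5.83 and -4.94 on WT replicates 1 to 4. It was well above background on 1 Glis3KO2 and 3 WT arrays, and the difference was -0.51 ± 0.31 (SE, limma, adjusted p = 0.690), or -0.19 with normexp. Hoxd12, a digit gene, was at -3.82, -4.71, -4.79 and -4.73 on Glis3KO2 replicates 1 to 4, against -4.28, -4.70, -4.79 and -4.78 on WT replicates 1 to 4. The first replicate of each genotype stood above its other 3, which lay within a narrow range.

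The run from Hoxa2 to Hoxa7 was picked out after the values were seen, and is described without a test. All 6 genes had positive differences, with a median of 0.32, and all 8 of their probes did, with a median of 0.35. With normexp these medians were 0.19 and 0.16. The 21 other tested Hox genes had a median of 0.01. Averaged over the 6 genes relative to their WT means, Glis3KO2 replicates 1 to 4 stood at 0.44, 0.20, 0.31 and 0.26, against -0.01, -0.15, 0.02 and 0.14 on WT replicates 1 to 4. All 6 differences were positive under 17 of 18 other settings. The exception was leaving out Glis3KO2 replicate 1, which turned Hoxa3 and left 5 positive.

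The same averages for the other clusters overlapped between genotypes, taking genes well above background on all 8 arrays. Over 7 Hoxb genes Glis3KO2 replicates 1 to 4 stood at 0.22, 0.25, -0.04 and -0.50, against -0.11, -0.10, 0.003 and 0.20 on WT replicates 1 to 4. Over 4 Hoxc genes they stood at 0.40, 0.27, 0.04 and -0.21, against -0.14, -0.12, 0.06 and 0.20 on WT replicates 1 to 4. In both clusters Glis3KO2 replicate 4 was the lowest of the 8 arrays, and replicates 1 and 2 were the highest. The Hoxb mean includes the brighter Hoxb9 probe, at -0.71, -0.60, -1.49 and -3.16 on Glis3KO2 replicates 1 to 4. The dimmer Hoxb9 probe did not show that spread, so the Hoxb order rests in part on 1 probe. Over 5 Hoxd genes the Glis3KO2 arrays ran from -0.12 to 0.31 and the WT arrays from -0.27 to 0.19.

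**Figure D4:**
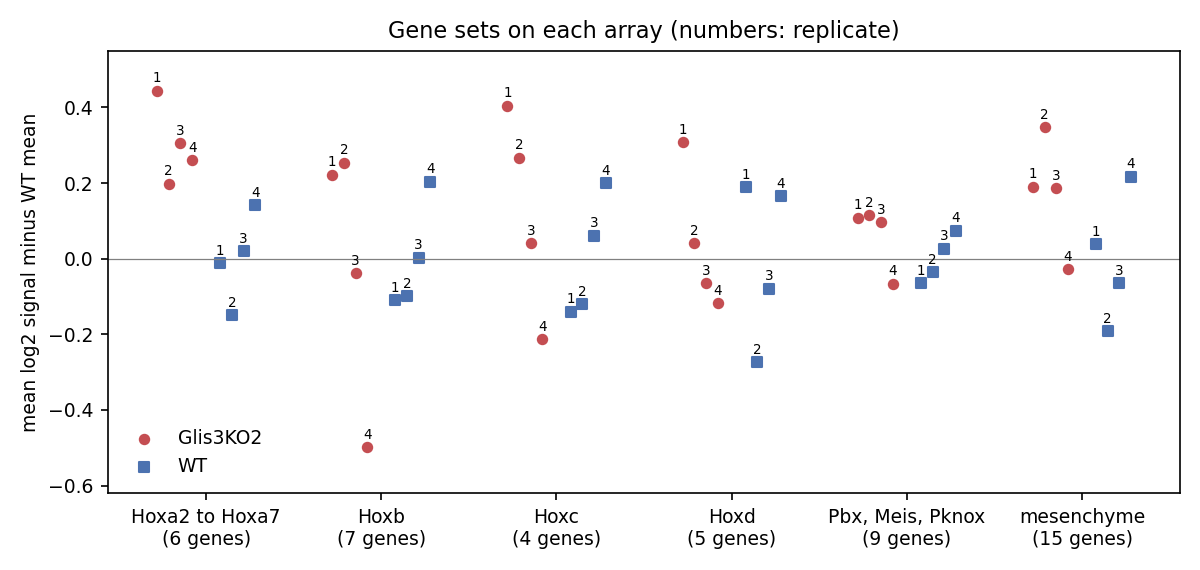
Mean log2 signal of each gene set on every array, relative to the WT mean of each gene, with Glis3KO2 circles left of WT squares and replicate numbers beside the points. The groups do not overlap for Hoxa2 to Hoxa7, a set picked after its values were seen, and overlap for the other sets drawn. Among the sets not drawn, nerve and glia markers (-0.57 to -0.16 in Glis3KO2, -0.08 to 0.09 in WT) did not overlap either. Nor did the mean of the 9 acinar, duct and islet markers (-0.90 to -0.68 in Glis3KO2, -0.07 to 0.07 in WT). That mean includes Ins1 and Ins2, which differed by -2.54 and -3.70, whereas the median difference over the 9 was -0.17.

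Markers of other tissues were read beside these values. The 15 mesenchymal markers, collagens and gut or pancreas mesenchyme factors among them, were all well above background, and 13 had positive differences, with a median of 0.15 and 0 past the threshold. Their mean ran from -0.03 to 0.35 on Glis3KO2 arrays and from -0.19 to 0.22 on WT arrays. Nerve and glia markers lay the other way, with 0 of 7 tested positive, a median of -0.30 and 0 past the threshold. Their mean ran from -0.57 to -0.16 on Glis3KO2 arrays and from -0.08 to 0.09 on WT arrays. Endothelial markers were positive for 1 of 8, with a median of -0.17, from -0.36 to 0.02 on Glis3KO2 arrays and from -0.10 to 0.14 on WT arrays. The part of these tissues in the Hox differences was not tested.

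The tissues next to the pancreas in a dissection showed smaller or uneven shifts. Spleen and lymphocyte markers, 8 of 8 tested with 2 positive, were highest on WT replicate 1, at 0.90, and ran from -0.37 to 0.05 on Glis3KO2 arrays and from -0.45 to 0.90 on WT arrays. Kidney markers, 7 of 8 tested, were positive for 6, with a median of 0.07. Intestinal markers, 7 of 8 tested, were positive for 3, with a median of -0.007, and Cdh17 was well above background on no array. Skeletal muscle markers were positive for 4 of 8 and blood markers for 1 of 4. No member of these 5 lists passed the threshold.

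Transcripts of Hox partner proteins were also read. The 9 Pbx, Meis and Pknox cofactor genes were well above background on all 8 arrays, and 0 passed the threshold in either direction, with 4 positive and 5 negative and a median of -0.003. Meis1, a partner of posterior Hox proteins, was at -0.63, -0.62, -0.52 and -0.77 on Glis3KO2 replicates 1 to 4, against -1.05, -0.81, -0.95 and -0.81 on WT replicates 1 to 4. All Glis3KO2 values lay above all WT values, as for 1.86% of all tested probes, with a difference of 0.27 ± 0.10 (SE, limma, adjusted p = 0.489). Meis1 and Pbx4 were the 2 of 9 cofactors at an unadjusted p under 0.05, where 8.97% of all tested probes stood, and were named for that after their values were seen.

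Regulators upstream of the clusters were likewise short of the threshold. Of 15 listed genes of retinoic acid signalling, the Cdx family and hindbrain control, 14 had a probe and 11 were tested, with 7 positive, a median of 0.09 and 0 past the threshold. Cdx2 and Cdx4, which activate central and posterior Hox genes in embryos, were well above background on no array. Cyp26a1, which degrades retinoic acid, had means of -4.34 ± 0.38 in Glis3KO2 and -4.88 ± 0.29 in WT (SD, n = 4 each), with adjusted p = 0.499 (limma). Of 15 Polycomb genes 10 were positive, with a median of 0.05, and of 10 Trithorax genes 5 were, with a median of -0.01, and 0 passed in either list.

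Homeobox genes related to the Hox clusters, such as Pdx1 and the Meox genes, were tested for 8 of 10, with 4 positive and 0 past the threshold. Genes that flank the clusters were tested for 10 of 10, with 8 positive, a median of 0.05 and 0 past the threshold. Skap1, a T cell adaptor that flanks Hoxb, had the lowest adjusted p among the lists of cofactors, regulators, chromatin factors, related homeobox genes and flanking genes. It was at -1.07, -1.39, -1.66 and -1.62 on Glis3KO2 replicates 1 to 4, against -0.20, -0.93, -0.50 and -0.61 on WT replicates 1 to 4. The groups did not overlap, with Glis3KO2 lower, as for 3.35% of all tested probes. The difference was -0.88 ± 0.18 (SE, limma, adjusted p = 0.151). WT replicate 1, which held the highest spleen and lymphocyte mean, also held the highest Skap1 value. Cd3e, a T cell gene and 1 of the 2 positive members of that list, was not raised there. It was at 0.48 on WT replicate 1 and from 0.38 to 0.50 on the other WT arrays. Its difference was 0.28 ± 0.17 (SE, limma, adjusted p = 0.690), opposite in sign to that of Skap1. The part of those cells was not tested.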

How the data were processed

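Total RNA, 500 ng per pancreas, was labelled with Cy3, per the labels' protocols. The deposited data are linear intensity readings per spot, which the authors obtained with Agilent Feature Extraction 9.5.3.1, per the file headers (9.5 in the submitters' processing notes), with background method code 7 and positions in mm7. The deposited series table held the same 45018 intensity values on each array.

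Each processed signal was taken to log2 after division by the 75th percentile of its array, found over 43379 spots that are not controls. Outlier-marked spots, 56 to 130 per array, were left out, no spot was saturated, and spots of a probe were averaged. A probe counted as well above background where at least 50% of its spots were, and 33239 of 41174 probes, well above background on at least 4 arrays, were tested with limma 3.58.1 in R 4.3.3 (lmFit and eBayes, genotype as the sole term, Benjamini-Hochberg over all tested probes, threshold 0.05). The brightest probe by mean over 8 arrays stood for a gene. Scaling to the 75th percentile hides a change shared by most genes. Of 25510 probes with an accession, 22951 matched the GRCm38.p6 RefSeq table, as did 43 of the 48 Hox probes reported, and all 48 kept their symbol. The other Hox gene, 1 in all, and some probe sequences are not reported here. The fit was also tested on simulated data. Python 3.11.15 drew the figures.

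Members and lists were chosen with earlier results of these data known. Named were Hox genes well above background on all 8 arrays or past the threshold, up to 5 further tested ones with the smallest p (there were 3), those whose detection differed by 3 or more arrays between genotypes, list members past the threshold, Glis3, Xist and Ins2. Other named genes are members without detected signal, probe partners, or genes picked after their values were seen. Alternatives included background correction by normexp (offset 50), other scalings, filters, covariates and settings, and leaving out arrays. Litters are not given, so the p-values rest on the spread between these pups alone. The 4 arrays per genotype limit the precision.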

Additional observations from a re-analysis of the deposited data

Results flagged for a closer look

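In 4 of 66 groups of 4 arrays, 1 array stood far from the other 3 by Dixon's criterion, where chance marks about 5% of groups. WT replicate 3 had -4.99 on the dimmer Hoxa4 probe, with the other WT arrays from -4.26 to -4.19. WT replicate 2 had -4.81 for Hoxc6, with the others from -4.35 to -4.32. Hoxd12 stood out in both genotypes, at -3.82 on Glis3KO2 replicate 1, with the other Glis3KO2 arrays from -4.79 to -4.71, and at -4.28 on WT replicate 1, with the other WT arrays from -4.79 to -4.70.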

How the results depend on the processing

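Under the 18 alternative fits 0 Hox probes passed the threshold, with a lowest adjusted p of 0.134 (limma), and 1 to 6 did at an unadjusted p under 0.05. The share of all tested probes at that unadjusted level was counted for the main fit alone, at 8.97%. The counts under the alternatives are therefore not read against a background. The count of detected Hox genes ranged between 24 and 36 over 4 alternatives, and 36 is the count by the weaker call of positive and significant. The Hox median ranged between -0.08 and 0.22. Of 483 alternative differences of 27 named genes 43 changed sign, of which 3 had a main difference above its SE: Hoxc6 with normexp (-0.00207), and Hoxb4 (0.0814) and Hoxb6 (0.0436) without Glis3KO2 arrays 3 and 4. Hoxb9 ranged between -0.28 and 0.85 and Hoxa3 between -0.11 and 0.65. The 85 probes past the threshold among all tested became 51 with no filter on dim probes, 142 with eBayes trend and robust, 27 with Xist level as a covariate, 11 without Glis3KO2 arrays 3 and 4 together, and 35 to 96 when leaving out 1 array in turn (39 without Glis3KO2 replicate 3 or 4, 36 without WT replicate 1 or 4, 35 without WT replicate 3). Among the related lists 1 gene, Skap1, passed with trend and robust, against 0 in the main fit. With the replicate number as a block 15 probes passed; arrays of the same number correlated at 0.129, 0.0893, 0.237 and -0.0375 (numbers 1 to 4), so the numbers were not read as pairs. Dim probes limit what can be read: normexp moved the median of all tested probes from -0.009 to -0.04, and Hoxd3 from 0.43 to 0.08. The causes of these moves were not tested, beyond fewer arrays or a larger tested set.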

Other observations

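Other transcripts inside the Hox clusters were read by 10 probes, a set chosen after values were seen. The probe for 5730446D14Rik, which RefSeq names Hoxaas2, lies between Hoxa2 and Hoxa3 on the strand opposite to the Hoxa genes and was well above background on all 8 arrays. It was at -3.17, -2.91, -3.12 and -3.38 on Glis3KO2 replicates 1 to 4, against -3.53, -3.92, -3.34 and -3.02 on WT replicates 1 to 4. The groups overlapped, and the difference was 0.31 ± 0.19 (SE, limma, adjusted p = 0.692). The other tested opposite-strand probe of this cluster, for 5730596B20Rik between Hoxa3 and Hoxa4, had the opposite sign, at -0.61 ± 0.45 (SE, limma, adjusted p = 0.742). It was detected on 1 Glis3KO2 and 3 WT arrays. TC1432492, between Hoxb3 and Hoxb2 on the Hox strand, was also well above background on all 8 arrays, with a difference of 0.34 ± 0.24 (SE, limma, adjusted p = 0.731).

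In the Hoxd cluster, 1 of 2 probes for 1700109F18Rik, which RefSeq names Hoxd3os1, was well above background on all 8 arrays and the other on none. The detected probe lies opposite to the Hoxd genes, between Hoxd8 and Hoxd4. It was at -4.36, -4.45, -5.00 and -4.74 on Glis3KO2 replicates 1 to 4, against -4.47, -4.42, -4.00 and -3.76 on WT replicates 1 to 4. The difference was -0.48 ± 0.20 (SE, limma, adjusted p = 0.533), while Hoxd3 differed by 0.43 and Hoxd4 by -0.15. The probe for 2700086A05Rik, which RefSeq names Hoxaas3, lies on the same strand as the Hoxa genes despite that antisense name. It was well above background on 5 arrays, with a difference of 0.07 ± 0.51 (SE).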
